A study of Mus musculus with 6 samples.

Results

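The 8 serine protease inhibitor (serpin) genes described here, *Serpinf1*, *Serpine2*, *Serping1*, *Serpina3n*, *Serpinb1a*, *Serpinb6a*, *Serpinb9* and *Serpini1*, were chosen by name, and all non-control probes that the array annotation assigns to them were taken. The choice was made with earlier results of these data known. These genes make up 8 of the 27307 gene symbols on the array, and the array holds 56 other serpin genes. The 8 genes have 16 probes, of which 12 lay well above background on all 6 arrays and were tested. The other 4 probes did not pass the filter, and each gene kept at least 1 tested probe.

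Serpins are a family of structurally related proteins, most of which inhibit serine proteases by a suicide mechanism in which the protease cuts an exposed loop of the serpin and is trapped in a covalent complex. Some are secreted and act on clotting, fibrinolysis, complement and matrix turnover, some stay in the cytoplasm and guard the cell against its own granule proteases, and a few have lost inhibitory activity and act as hormones or chaperones. In the heart they are made by fibroblasts, vascular and immune cells as well as by cardiomyocytes, and several are induced by inflammation or injury.

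RNA came from the hearts of male *Clk4*-cKO mice on the C57BL/6J strain, and 1 heart was hybridised to each Agilent single-colour array. Both groups carried floxed *Clk4* alleles (*Clk4* fl/fl) and the tamoxifen-inducible *α-MHC-MerCreMer* transgene, whose promoter confines Cre activity to cardiomyocytes, and both had received tamoxifen. The groups differed only in the virus: 3 mice received AAV NEXN-WT, which carries wild-type nexilin, and 3 received AAV NEXN-S437E, in which glutamate replaces a serine to mimic the phosphorylated form of this Z-disc protein. Per the study's methods, the vector was AAV of serotype 9 with the CMV promoter, which is not restricted to cardiomyocytes, given at 5 weeks of age, and cardiac phenotypes were read 3 weeks after the first tamoxifen dose. Hearts with intact *Clk4* and hearts without AAV were not analysed here, so every difference below is between 2 kinds of treated knockout hearts.

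A single slide, scanned once, carried the 6 arrays: slide row 1 held the NEXN-WT group together with NEXN-S437E replicate 1, and row 2 held NEXN-S437E replicates 2 and 3. Between 41.9% and 47.8% of spots were well above background. NEXN-WT replicate 1 stood apart: its mean absolute log2 difference from the other NEXN-WT arrays was 0.37 and 0.43, against 0.25 between those 2 arrays and 0.19 to 0.29 within the NEXN-S437E group. The results of the called serpins, and those of several other genes, are therefore also given without it, and for genes other than serpins this was chosen after seeing the data. The *Clk4* probe above background on every array differed by 0.05 (standard error 0.18) on the log2 scale, and the 2 *Nexn* probes by −0.06 and 0.06, which does not check the labels because both groups were knockouts given a *Nexn* vector and the probes were not placed on exons. All 7 cardiomyocyte markers examined (among them *Myh6* and *Tnnt2*) lay above background on every array.

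Levels are log2 signals relative to each array's 75th percentile over probes detected on all 6 arrays. A difference is NEXN-S437E minus NEXN-WT on this log2 scale, with the standard error from limma. A probe was called when it differed at least 2-fold with an unadjusted limma p under 0.05 (the 2-fold rule). It was also called when its Benjamini-Hochberg adjusted p over all 22998 tested probes was under 0.05. The 2-fold rule takes the thresholds of the study, whose p came from Student's t-test and not from limma. Different probes bind with different strength, so levels were compared between arrays and not between probes.

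*Serpinf1* and *Serpina3n* were about 3-fold lower in NEXN-S437E hearts and were called by the 2-fold rule. *Serping1* and *Serpine2* had smaller differences in the same direction, with no overlap between the groups. For the neuronal serpin *Serpini1* and the intracellular *Serpinb1a*, *Serpinb6a* and *Serpinb9* the groups overlapped, and the 95% intervals of the tested probes held 0. By the 2-fold rule 4 of the 12 tested serpin probes (3 of *Serpinf1* and 1 of *Serpina3n*) were lower and 0 higher, where 2.03% of all tested probes were lower and 0.53% higher. No serpin probe passed the adjusted p with limma, against 0.148% of all tested probes, while 5 of 12 had an unadjusted p under 0.05, all lower (8.57% of all tested probes). With the methods' t-test 4 of 12 had an unadjusted p under 0.05 (13.6% of all tested probes) and 0 passed after adjustment. Because the genes were chosen with earlier results known, the shares over all probes are a description and no test.

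**Figure D1:**
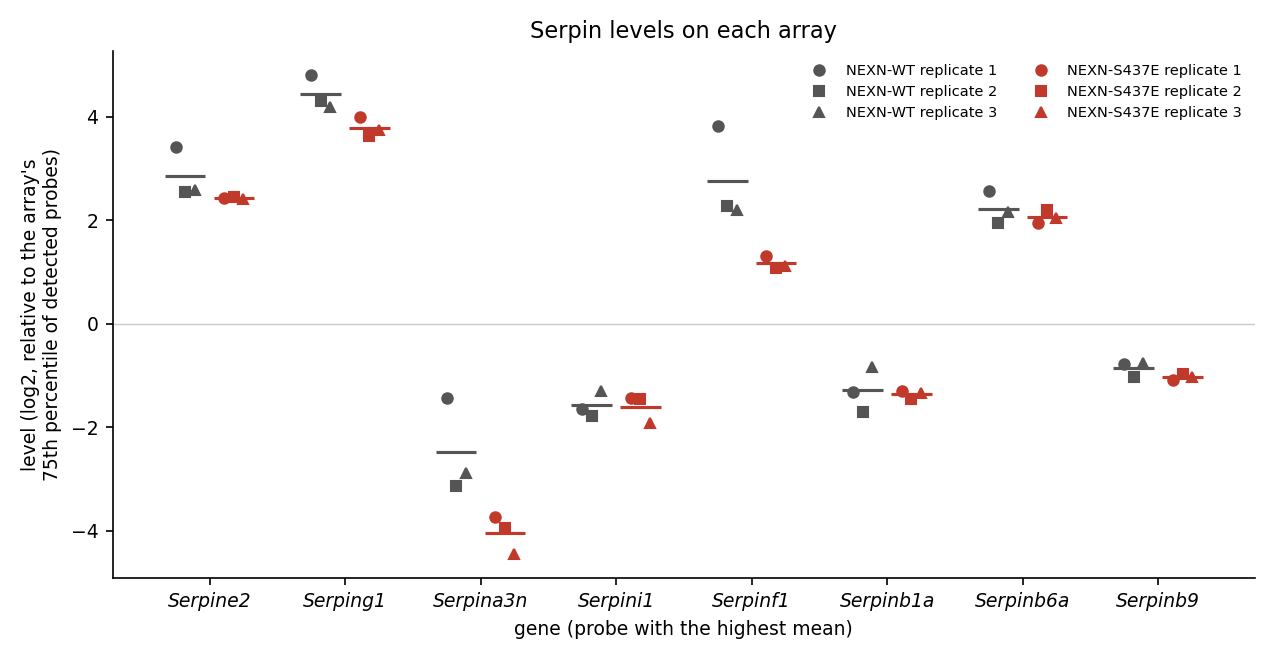
Level of each of the 8 serpin genes (probe with the highest mean) on each array, in log2 units relative to the array's 75th percentile of detected probes. Grey symbols are NEXN-WT, red symbols are NEXN-S437E, symbol shape gives the replicate and horizontal bars are group means. The *Serpinf1* and *Serpina3n* values of the groups lie apart by 0.88 and 0.61, NEXN-WT replicate 1 is the highest array for both, and levels should be read within a gene, not between genes.

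*Serpinf1* encodes pigment epithelium-derived factor (PEDF), a secreted serpin without protease inhibitory activity that restrains blood vessel growth and is made by fibroblasts and other stromal cells. Its 3 probes lie on the minus strand of chromosome 11 of mm9, the build of the deposited coordinates, and their starts span 5595 bases. A_51_P517075 lies at chr11:75223568-75223627, A_66_P130497 at chr11:75224421-75224480 and A_52_P35048 at chr11:75229163-75229222. The sequences of the latter 2 are shown because their agreement over separate stretches of the gene is what the *Serpinf1* result rests on. Each holds 1 of 3 reading frames without a stop codon on the printed strand, and no mm9 genome was used here to place them in exons.
A_66_P130497: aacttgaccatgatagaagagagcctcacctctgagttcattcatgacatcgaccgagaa
A_52_P35048: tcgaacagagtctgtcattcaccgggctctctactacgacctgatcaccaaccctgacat

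The probe A_51_P517075 read 3.81, 2.28 and 2.20 in the NEXN-WT hearts and 1.31, 1.08 and 1.12 in the NEXN-S437E hearts. Every NEXN-S437E heart was below every NEXN-WT heart, and NEXN-WT replicate 1 was above the other 5. The log2 difference was −1.59 (standard error 0.41, 95% interval −2.54 to −0.64), or 3.01-fold lower, with an adjusted p of 0.168 from limma with Benjamini-Hochberg adjustment.

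A_66_P130497 read 2.17, 1.03 and 0.91 with NEXN-WT and 0.01, −0.17 and −0.16 with NEXN-S437E. Its difference was −1.48 (standard error 0.32, adjusted p = 0.145, limma), or 2.79-fold lower. A_52_P35048, the probe farthest from A_51_P517075, read −0.07, −0.99 and −0.89 with NEXN-WT and −2.11, −2.50 and −2.34 with NEXN-S437E. Its difference was −1.67 (standard error 0.26, adjusted p = 0.0887, limma), or 3.18-fold lower, with the widest gap between the groups of any tested serpin probe, at 1.12 log2 units. The order of the arrays was alike on all 3 probes: NEXN-WT replicate 1 was the highest, the other NEXN-WT hearts followed, and NEXN-S437E replicate 1 led its own group.

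Without NEXN-WT replicate 1 the differences of the 3 *Serpinf1* probes were −1.07, −1.08 and −1.38, with adjusted p of 0.0374, 0.0346 and 0.0299 from limma. The standard error of A_51_P517075 was then 0.13. With slide row as a block, which leaves the comparison to the 4 arrays of row 1, the differences were −1.45, −1.36 and −1.46, and A_51_P517075 no longer met the 2-fold rule (adjusted p = 0.506 from limma).

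*Serpina3n* encodes a secreted inhibitor of the acute phase, related to human α1-antichymotrypsin, that blocks chymotrypsin-like and granule proteases and is induced by inflammatory cytokines. Its 1 probe, A_51_P159453 at chr12:105651918-105651977 (mm9, plus strand), read −1.44, −3.14 and −2.88 in the NEXN-WT hearts and −3.74, −3.95 and −4.45 in the NEXN-S437E hearts. The groups did not overlap, and the highest NEXN-WT heart was again replicate 1. The difference was −1.56 (standard error 0.43, 95% interval −2.58 to −0.55), or 2.96-fold lower, with an adjusted p of 0.183 from limma. Without NEXN-WT replicate 1 it was −1.04 (adjusted p = 0.163, limma) and still called by the 2-fold rule. The call ended under 3 alternatives: a slide row block (−1.26, standard error 0.65), the methods' t-test, whose unadjusted p lay above 0.05, and normexp background correction (−0.90, standard error 0.28).

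*Serpina3n* belongs to a cluster of near-identical mouse genes, and a short probe may also bind their transcripts. The array has 14 probes for 10 other *Serpina3* genes, of which 7 were never above background and 2 were tested. The estimates of the tested ones had opposite signs. *Serpina3g* read −2.43, −2.75 and −2.38 with NEXN-WT and −2.84, −3.56 and −3.86 with NEXN-S437E, a difference of −0.90 (standard error 0.27). *Serpina3m* read −4.07, −4.62 and −4.85 with NEXN-WT and −3.97, −3.68 and −3.65 with NEXN-S437E, a difference of 0.75 (standard error 0.22). How much of the *Serpina3n* signal comes from related transcripts was not tested.

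The promoters of both called genes are shown because these genes moved together, and because letters read by factors active in inflamed tissue could be looked for in them. Promoter sequence (RefSeq, GRCm38.p6) was at hand for 6 of the 8 genes, and the stretch upstream of the outermost annotated start was taken, chr11:75422624-75422873 on the minus strand for *Serpinf1* and chr12:104406458-104406645 on the plus strand for *Serpina3n*. Capitals mark CCAAT, the core of the CCAAT box, searched on both strands.
Serpinf1 promoter: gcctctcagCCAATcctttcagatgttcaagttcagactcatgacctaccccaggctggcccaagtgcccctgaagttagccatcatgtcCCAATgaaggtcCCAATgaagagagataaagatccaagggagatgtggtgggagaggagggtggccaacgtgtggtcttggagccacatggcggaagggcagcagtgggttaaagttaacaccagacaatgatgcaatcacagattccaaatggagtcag
Serpina3n promoter: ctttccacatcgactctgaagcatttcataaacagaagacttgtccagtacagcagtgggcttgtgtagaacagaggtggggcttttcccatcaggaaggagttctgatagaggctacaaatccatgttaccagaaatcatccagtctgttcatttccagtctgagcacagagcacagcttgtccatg

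The *Serpinf1* stretch of 250 bases holds CCAAT 3 times, all on the printed strand, and 33.8% of the 32851 promoter windows of that length hold it at least once. The *Serpina3n* stretch of 188 bases does not hold it, as against 26.4% of windows that do. Neither stretch holds TTCNNNGAA, the palindrome bound by STAT factors (7.02% of windows of the longer length and 5.49% of the shorter), TGACTCA of AP-1 (4.46% and 3.30%), or TATAA (22.8% and 17.1%), all searched on both strands. These are letter matches in a short window and say nothing about binding in these hearts.

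*Serping1* encodes the C1 inhibitor, which stops the C1r and C1s proteases of complement and the contact pathway. Its probe A_55_P1992889 (chr2:84605663-84605722, mm9, minus strand) read 4.81, 4.30 and 4.18 with NEXN-WT and 4.00, 3.62 and 3.74 with NEXN-S437E, with no overlap between the groups. The difference was −0.65 (standard error 0.20, 95% interval −1.12 to −0.17), or 1.57-fold lower, with an adjusted p of 0.213 from limma, so it met neither rule. It was −0.46 without NEXN-WT replicate 1 and −0.44 (standard error 0.28) with slide row as a block.

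*Serpine2* encodes protease nexin-1, an inhibitor of thrombin, urokinase and plasmin at cell surfaces. Its probe A_55_P2902822 (chr1:79790914-79790973, mm9, minus strand) read 3.41, 2.55 and 2.59 with NEXN-WT and 2.42, 2.44 and 2.41 with NEXN-S437E. The groups did not overlap, but apart from NEXN-WT replicate 1 the hearts lay close together, with a gap of 0.11 between the groups. The difference was −0.42 (standard error 0.24, 95% interval −0.98 to 0.13, adjusted p = 0.4 from limma), and −0.14 (standard error 0.11) without NEXN-WT replicate 1. A further *Serpine2* probe was above background on 1 NEXN-WT array only and was not tested.

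*Serpini1* encodes neuroserpin, an inhibitor of tissue plasminogen activator known from the nervous system. Its probe A_52_P220573 (chr3:75446123-75446182, mm9, plus strand) read −1.65, −1.79 and −1.30 with NEXN-WT and −1.44, −1.45 and −1.92 with NEXN-S437E, with full overlap and a difference of −0.02 (95% interval −0.49 to 0.44). The other tested probe, A_66_P100165, differed by −0.21 (95% interval −0.64 to 0.22). The sign of the first turned under several alternatives and that of the second under 1. A probe never above background, A_55_P2717538, was not tested.

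The intracellular serpins of clade B protect cells from proteases released from their own granules. *Serpinb1a*, an inhibitor of neutrophil elastase, cathepsin G and proteinase 3 (probe A_55_P2006008, chr13:32934693-32934752, mm9, minus strand), read −1.32, −1.71 and −0.83 with NEXN-WT and −1.31, −1.45 and −1.34 with NEXN-S437E, a difference of −0.08 (95% interval −0.60 to 0.45). *Serpinb9*, the inhibitor of granzyme B in cytotoxic cells and the cells beside them (probe A_55_P2903199, chr13:33108685-33108744, mm9, plus strand), read −0.78, −1.04 and −0.76 with NEXN-WT and −1.09, −0.97 and −1.03 with NEXN-S437E, a difference of −0.17 (95% interval −0.49 to 0.15). In both genes the groups overlapped, and the intervals do not reach a 2-fold difference.

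*Serpinb6a*, a broad cytoplasmic inhibitor of trypsin-like proteases and cathepsin G, was read by 2 tested probes. A_55_P2066727 (chr13:34009796-34009855, mm9, minus strand) read 2.57, 1.95 and 2.15 with NEXN-WT and 1.95, 2.19 and 2.05 with NEXN-S437E, a difference of −0.16 (95% interval −0.59 to 0.27). A_65_P04841 (chr13:34010675-34010734) differed by −0.26 (95% interval −0.63 to 0.12). The groups overlapped on both probes. The other 2 *Serpinb6a* probes were never above background. The *Serpinb1*, *Serpinb6* and *Serpinb9* genes also have close relatives in the mouse. Of the probes for these relatives, 3 of 3, 1 of 5 and 6 of 7 were never above background, and cross-hybridisation was not tested.

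**Figure D2:**
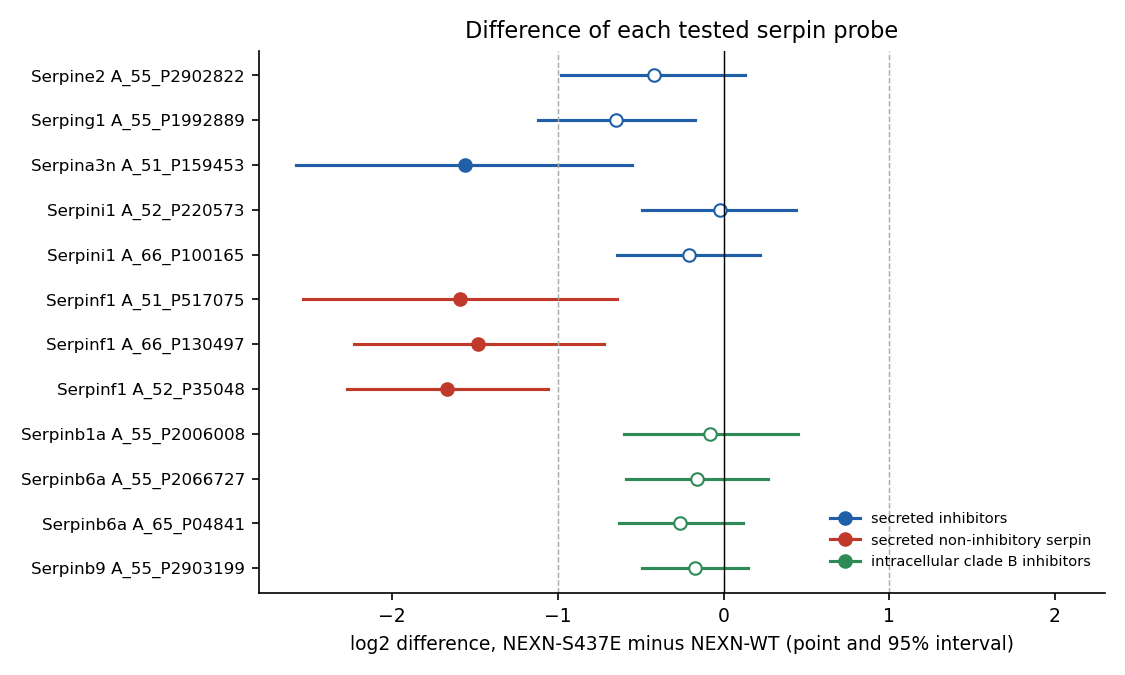
Log2 difference (NEXN-S437E minus NEXN-WT) of each of the 12 tested serpin probes with its 95% interval from limma, 3 arrays a group. Colours give the role of the serpin, filled points were called by the 2-fold rule, and dashed lines mark a 2-fold difference either way. The 3 *Serpinf1* probes and the *Serpina3n* probe lie between −1.67 and −1.48, and the other 8 between −0.65 and −0.02.

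All 12 point estimates were below 0 and their median was −0.34, where 11209 of the 22998 tested probes were lower, 11789 were higher and the median was 0.01. Taking 1 probe a gene, 8 of 8 estimates were below 0 with a median of −0.30, and 2 genes were called by the 2-fold rule, where 2.44% of 13747 genes were called lower and 3.05% were called in either direction. The groups did not overlap on 6 of the 12 probes, all lower, against 12.4% of all tested probes that were lower without overlap and 14.4% that were higher (26.8% in all). The genes were chosen with earlier results of these data known, so these shares describe the set and do not test it.

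Less of the rest of the family was measurable. Of the 71 probes of the 56 other serpin genes, 44 were never above background and 15 probes of 13 genes were tested, among which 0 were called by either rule with limma. Their median difference was 0.29, with 5 probes lower and 10 higher. At an unadjusted p under 0.05 there were 2 lower and 2 higher, 4 of 15 where 16.4% of all tested probes were in either direction, named here after their values had been seen. *Serpina3g* and *Serpinh1*, the collagen chaperone Hsp47 (−0.42, standard error 0.15), were lower, while *Serpina3m* and *Serpind1*, heparin cofactor II (0.59, standard error 0.25), were higher. *Serpind1* was above background on 2 of the 3 NEXN-WT arrays and so passed the filter through the NEXN-S437E group alone. Whether the lists differ was not tested.

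**Figure D3:**
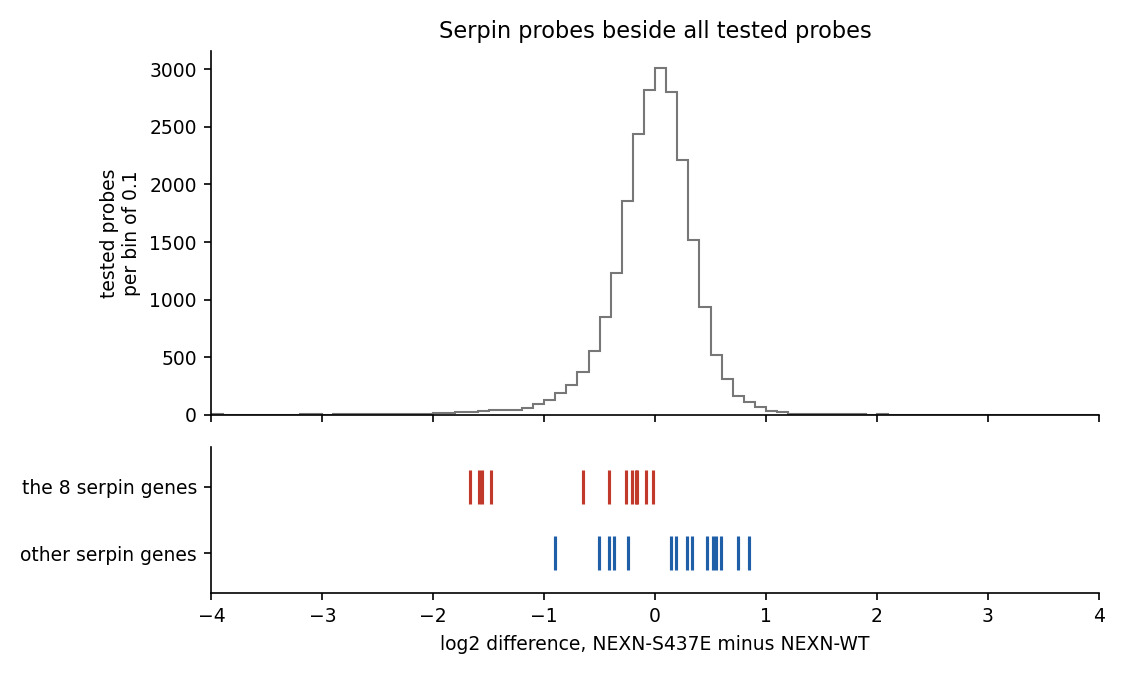
Above, the number of tested probes in each bin of the log2 difference (NEXN-S437E minus NEXN-WT, bins of 0.1, with values beyond 4 counted in the end bins). Below, each vertical tick is 1 tested probe, 12 of the 8 serpin genes (red) and 15 of other serpin genes (blue). The red ticks all lie below 0, with 4 of them far into the lower tail, and the blue ticks lie on both sides.

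Target proteases and receptors in the clotting and complement pathways had no calls. In the coagulation and plasminogen list 10 of 19 genes were tested and 0 were called by limma under either rule, with a median of −0.32. Their summed linear level was 9.48 to 14.1 with NEXN-WT and 7.88 to 8.51 with NEXN-S437E, without overlap. *Plat*, tissue plasminogen activator and the target of neuroserpin, read −2.50, −3.03 and −3.11 with NEXN-WT and −3.93, −3.40 and −3.11 with NEXN-S437E. Its difference was −0.60 (standard error 0.25), and the nearest values of the groups were equal to 2 decimals. *Plau*, urokinase, differed by 0.28 (standard error 0.24). *Lrp1*, the endocytic receptor that clears serpin-protease complexes, read 2.21, 1.16 and 1.02 with NEXN-WT and 0.57, 0.39 and 0.60 with NEXN-S437E, without overlap. It was lower by estimate at −0.94 (standard error 0.30), just short of 2-fold, and its adjusted p was 0.218 from limma. Without NEXN-WT replicate 1 the difference was −0.57 (standard error 0.13).

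The complement list, which holds the proteases that the C1 inhibitor controls, had 11 tested genes, of which 10 had estimates below 0 and 0 were called, with a median of −0.49, or −0.27 without NEXN-WT replicate 1. *C1s1* read 0.91, 0.32 and 0.52 with NEXN-WT and 0.22, −0.10 and −0.02 with NEXN-S437E, without overlap. The estimate was −0.55 (standard error 0.19) with an adjusted p of 0.234 from limma, and without NEXN-WT replicate 1 it was −0.39 (standard error 0.15). The difference of *Serping1* itself, at −0.65, was of similar size, and both genes were highest in NEXN-WT replicate 1.

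The granule list, which includes proteases inhibited by clade B serpins and by *Serpina3n*, had calls in both directions, with a median of 0.26, 3 genes lower and 6 higher by estimate, and overlapping sums (0.968 to 2.04 with NEXN-WT and 1.62 to 2.00 with NEXN-S437E). It also holds *Prf1*, the pore former perforin, and *Cpa3*, a metallocarboxypeptidase, which are no serine proteases. With 1 probe a gene, 2.44% of all tested genes were called lower and 0.604% higher by the 2-fold rule. Of the 9 tested genes of the list 7 were above background on every array, and of these 1 was lower and 1 was higher by that rule. The remaining genes, *Gzmk* and *Gzmb*, passed the filter through the NEXN-WT group alone, the group where they were higher, so their calls are a description. *Gzma*, a trypsin-like granzyme of cytotoxic lymphocytes, read −2.85, −2.28 and −1.25 with NEXN-WT and −3.82, −3.88 and −3.67 with NEXN-S437E (difference −1.66, standard error 0.37). *Gzmk* lay above background in no heart given NEXN-S437E, where it was at least 4.60-fold lower, with the bound set by the lowest signal above background on each array (adjusted p = 0.0884 from limma). Without NEXN-WT replicate 1, its lowest NEXN-WT value, the bound was 7.81-fold and limma's adjusted p 0.00421. As the filter had fixed the direction, neither p tests it. *Gzmb*, the target of *Serpinb9*, was above background on 1 of the 3 NEXN-S437E arrays and differed by −1.46 (standard error 0.52). Its NEXN-WT replicate 1, at −6.16, lay among the NEXN-S437E hearts, which read −6.11, −6.08 and −6.69, so the groups overlapped. Without that replicate the difference was −2.12, against the same dim NEXN-S437E values.

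*Gzmm*, a granzyme of innate lymphocytes, went the other way and was higher by 1.06 (standard error 0.24). Without NEXN-WT replicate 1 its difference was 0.77 (standard error 0.11), and it no longer met the 2-fold rule. A further *Gzmm* probe was higher by 1.18 (standard error 0.22). The other tested genes, *Mcpt4*, *Tpsb2*, *Elane*, *Cma1* and *Cpa3*, had estimates of 0.66, 0.58, 0.33, 0.26 and 0.23 and were not called. *Ctsg*, cathepsin G, the target shared by *Serpinb1a*, *Serpinb6a* and *Serpina3n*, was never above background. The difference between inhibitors and targets was not tested.

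Of the 8 receptors and angiogenic partners of PEDF 0 were called by limma under either rule, with a median of −0.01, and the sums were 44.1 to 48.2 with NEXN-WT and 49.6 to 51.4 with NEXN-S437E. *Pnpla2*, the lipase that serves as a PEDF receptor, read 1.22, 1.38 and 1.35 with NEXN-WT and 1.25, 1.71 and 1.54 with NEXN-S437E, a difference of 0.18 (standard error 0.16). The list of protease inhibitors outside the serpin family, which does not hold the metalloproteinase inhibitor *Timp1* of the acute phase list, had 9 tested genes, 5 of them lower and 4 higher by estimate, with 0 called by limma under either rule and a median of −0.09. Their sums were 37.6 to 43.6 with NEXN-WT and 32.9 to 35.9 with NEXN-S437E, without overlap, and 7 of the 9 were lower by estimate without NEXN-WT replicate 1.

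Lists of the pathways that induce serpins had calls, where with 1 probe a gene 2.44% of all tested genes were lower and 0.604% higher by the 2-fold rule and 0.182% passed the adjusted p. In the acute phase and STAT3 list 1 of 15 tested genes was lower and 1, which passed the filter through the NEXN-S437E group alone, was higher, with a median of −0.24. *Timp1*, the secreted inhibitor of metalloproteinases, read 2.67, 1.01 and 0.78 with NEXN-WT and −0.67, −1.14 and −1.34 with NEXN-S437E, and its highest array was the same as for *Serpina3n*. The estimate was −2.54 (standard error 0.48) with an adjusted p of 0.126 from limma, and −1.95 (standard error 0.22, adjusted p = 0.0315) without NEXN-WT replicate 1. *Saa3*, an acute phase apolipoprotein made outside the liver, was above background on the 3 NEXN-S437E arrays only and at least 3.60-fold higher there (adjusted p = 0.0169 from limma). The filter had fixed this direction, and the p is no test of it.

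The interferon gamma list had 13 of 14 tested genes with estimates below 0 and a median of −0.41. Of these *Cxcl10*, a chemokine for T cells (−2.24, standard error 0.32), and *Tap1*, the peptide transporter (−1.25, standard error 0.17), were called lower by the 2-fold rule, and *Ciita*, the regulator of class II antigen presentation, passed the adjusted p (−0.96, standard error 0.12, adjusted p = 0.0453 from limma). The *Ciita* call ended wherever 0 partner genes passed the adjusted p. This was so with normexp, no filter on dim probes, the filter on all 6 arrays, the t-test and the slide row block. It was also so without NEXN-WT replicate 2 and without each NEXN-S437E replicate in turn.

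**Figure D4:**
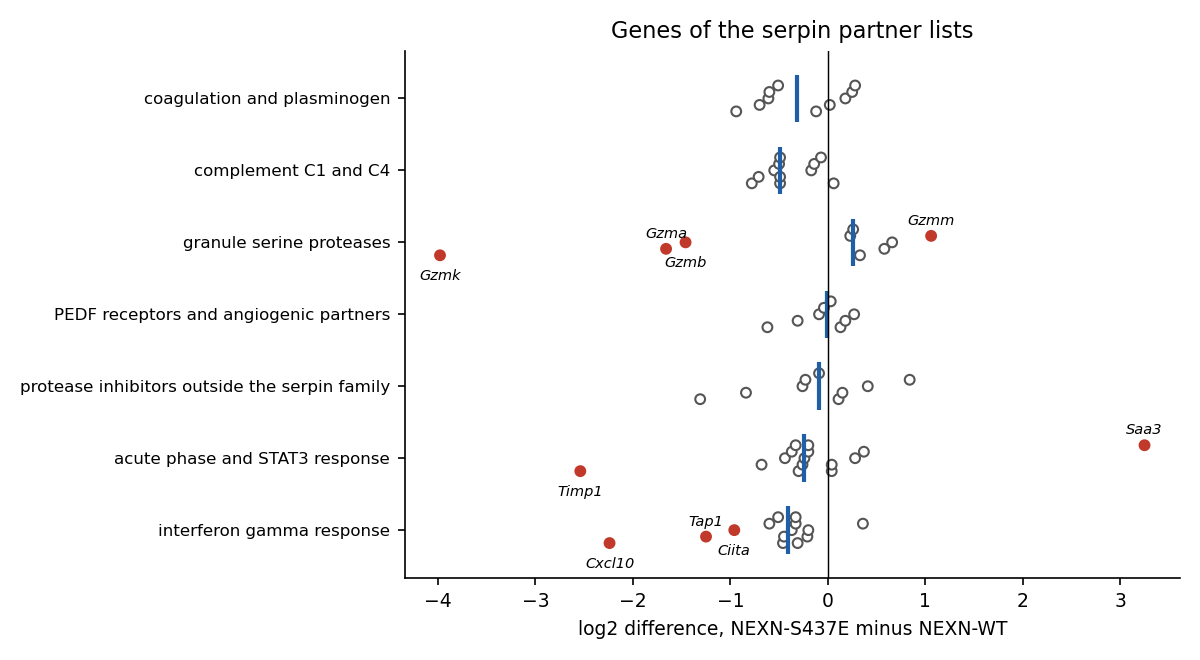
Log2 difference (NEXN-S437E minus NEXN-WT) of the tested genes in 7 lists of serpin targets, receptors, other inhibitors and inducing pathways, 1 probe a gene, with blue bars at the median of each list. Filled red points were called by either rule, and height within a list carries no meaning. Calls fall in the granule protease, acute phase and interferon gamma lists, and *Gzmk* and *Saa3*, for which 1 group was not above background, are plotted at fitted values, which are larger than their bounds of 4.60-fold and 3.60-fold.

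Markers of other cells moved between the same hearts. Of 13747 tested genes, 1 probe each, 2.44% were called lower and 0.604% higher by the 2-fold rule, and 0.182% passed the adjusted p. Of all 22998 tested probes 11209 had estimates below 0. All 7 fibroblast markers were lower in NEXN-S437E hearts by estimate, with a median of −0.87 and 2 called (*Col1a1* at −1.90 and *Col1a2* at −1.57), and none was below background. Their summed linear level, relative to the percentile, was 148, 90.6 and 97.5 for NEXN-WT against 70.1, 66.6 and 72.5 for NEXN-S437E, and NEXN-WT replicate 1 was the highest, as for *Serpinf1* and *Serpina3n*. Without that replicate the median was −0.56, *Col1a1* differed by −1.48 and *Col1a2* by −1.15, and the groups' sums still did not overlap. In a whole-heart sample, fewer cells of a type and less RNA per cell cannot be told apart. The part of fibroblast content in the *Serpinf1* difference was not tested.

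By the 2-fold rule, with 1 probe a gene, 2.44% of all tested genes were called lower. Of the 7 T cell markers 6 were tested, 4 of them above background on every array, and of these 2 were called lower (*Cd3d* and *Cd2*). Of the others *Cd3e* differed by −0.62 (standard error 0.21) and *Cd4* by 0.14 (standard error 0.15, groups overlapping), and neither was called. The summed level was 0.528 to 0.783 with NEXN-WT and 0.243 to 0.284 with NEXN-S437E. Of the 7 markers of NK and cytotoxic cells 4 were tested, and the 2 that were above background on every array, *Ccl5* and *Nkg7*, were called lower. The sums were 0.777 to 1.44 and 0.160 to 0.209, while *Klrb1c* and *Ncr1* were never above background. Of the 6 markers of B and plasma cells 3 were tested, the 1 above background on every array, *Cd79b*, was not called (−0.69, standard error 0.19), and *Cd79a* and *Ms4a1* were never above background. Their sums were 0.177 to 0.227 and 0.105 to 0.111.

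*Cd3g*, *Klrk1*, *Klrd1* and *Jchain*, the joining chain of secreted antibodies, were above background in the 3 NEXN-WT hearts and in none given NEXN-S437E, so they passed the filter through the NEXN-WT group alone and could only be lower. They were at least 2.31-fold, 1.98-fold, 2.04-fold and 4.36-fold lower, with adjusted p of 0.00116, 0.105, 0.144 and 0.00311 from limma in the same order, which are no test of a direction that the filter had fixed. *Cd8b1* (called lower) and *Mzb1* (not called) also passed through the NEXN-WT group alone, with 2 of the 3 NEXN-S437E arrays above background. Among the NEXN-WT hearts, replicate 1 had the lowest T cell and NK sums and the highest B and plasma cell sum, and it was the highest for *Serpinf1* and *Serpina3n*. The part of these cells in the serpin and granzyme results was not tested.

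The macrophage and endothelial lists had 0 calls each with limma under either rule, and their sums overlapped, 27.9 to 40 against 31.3 to 34.2 for macrophages and 30.3 to 34.4 against 28.8 to 35 for endothelial cells. All 7 cardiomyocyte markers were higher by estimate with 0 called, with sums of 272 to 327 with NEXN-WT and 374 to 393 with NEXN-S437E. Of the 7 hepatocyte markers, a check for blood-borne or liver RNA because the liver makes many serpins, 2 were tested, 0 were called and 4 were never above background. The tested ones, *Ahsg* (0.39, standard error 0.17) and *Apoa2* (0.23, standard error 0.14), were both higher by estimate with NEXN-S437E. The sums, 0.895 to 1.05 with NEXN-WT and 1.07 to 1.32 with NEXN-S437E, did not overlap. The estimates of the 8 serpin genes were below 0. Of the 15 tested probes of other serpin genes, 10 were higher and 5 lower. Those higher include every tested *Serpina1* probe, with estimates from 0.33 (*Serpina1c*) to 0.85 (*Serpina1e*). The part of liver or blood-borne RNA in the serpin results was not tested. The lists of neutrophils, mast cells, smooth muscle and pericytes, mesothelium, and Schwann and neuronal cells had 3, 2, 6, 2 and 4 tested genes, with 0 called by limma under either rule, and in each the sums of the groups overlapped.

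The genes whose values over the 6 arrays lay nearest to those of *Serpinf1*, by mean absolute difference after centring each gene, were *Tmem45a* (0.056), *Itga11*, a collagen-binding integrin (0.073), and *Mfap2*, a microfibril protein of the matrix (0.078), where the median over 13718 genes was 0.80. Their own differences were −1.51, −1.62 and −1.50. Nearest to *Serpina3n* were *Fcgr4*, an Fc receptor of myeloid cells (0.11), *Runx1*, a transcription factor (0.12), and *Rab15* (0.12), where the median was 0.79, with differences of −1.44, −1.62 and −1.59. The likeness was measured over 6 arrays in 2 groups, so it includes the group difference itself.

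Over the alternatives run, the differences of the called probes stayed below 0. They ranged from −1.87 to −1.07 for *Serpinf1* A_51_P517075, from −1.71 to −1.08 for A_66_P130497, from −1.84 to −1.38 for A_52_P35048 and from −1.89 to −0.90 for *Serpina3n*. The adjusted p from limma or, for the methods' test, from Benjamini-Hochberg adjustment ranged from 0.0175 to 0.506, from 0.011 to 0.462, from 0.00481 to 0.34 and from 0.0322 to 0.541 in the same order. The lowest adjusted p came with array weights for all 4 probes, and the highest with the slide row block.

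**Figure D5:**
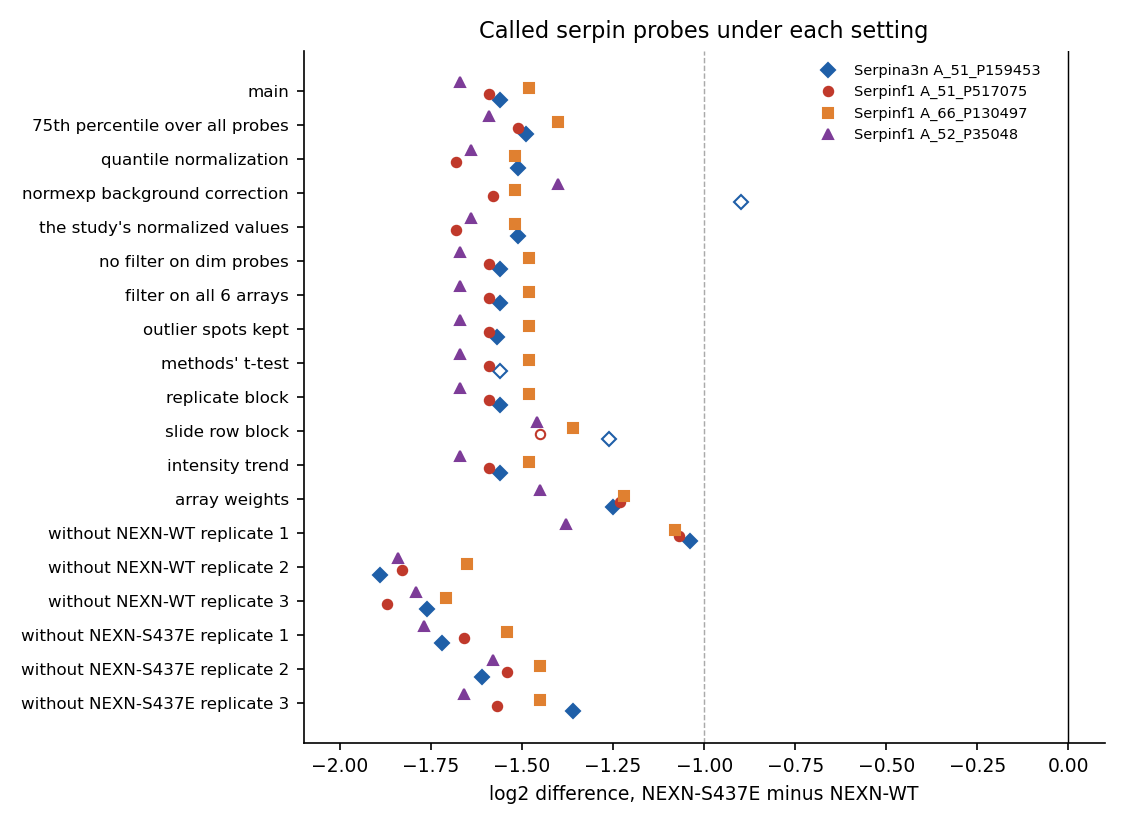
Log2 difference (NEXN-S437E minus NEXN-WT) of the 4 called serpin probes as reported (main) and under each of 18 alternatives. Open symbols are values no longer called by the 2-fold rule, and the dashed line marks a 2-fold difference. The values stay below 0 throughout, are smallest without NEXN-WT replicate 1 for the *Serpinf1* probes, and lose the call in 4 places.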

How the data were processed

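Total RNA from 6 hearts (3 a group) was labelled with Cy3 and hybridised to Agilent SurePrint arrays (design 074809). Per the file headers, the authors extracted the deposited intensities, background-subtracted and not normalized between arrays, with Feature Extraction 10.7.1.1. They also deposited normalized log2 values, whose 6 columns hold the same sorted values. The normalization is not given in the sources used here. Background flags (well above background or not) came from the array files.

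Groups and replicate numbers came from the sample titles. Outlier spots were dropped, spots of a probe were averaged, and each array's 75th percentile over probes detected on all 6 arrays was subtracted from log2 signals. The 22998 probes that passed (all 3 arrays of either group well above background) were compared with limma 3.58.1 in R 4.3.3, with the data.table package (version 1.17.8). No spot was saturated, and the number of arrays limits the precision: an exact permutation test of 3 against 3 could not go below p = 0.1. On simulated data for 22987 probes, limma recovered 42 of 100 probes changed 2-fold and 81 of 100 changed 4-fold at the adjusted threshold, and called 0 when nothing was changed.

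Named were all probes of the 8 genes, called genes of the partner lists (up to 4 a list), 7 known targets or receptors, and the 3 nearest genes of each called serpin. A gene with several probes was represented by the one with the highest mean. Cell type markers named with values were chosen after their values were seen. The members and lists were chosen with earlier results of these data known. Lists of other cell types, used as a check, were cardiomyocytes, fibroblasts, T, NK and B cells, macrophages, neutrophils, mast cells, endothelium, smooth muscle, mesothelium, Schwann cells and hepatocytes. Alternatives were other scalings, background corrections and filters, the methods' t-test, blocks for replicate number and slide row, other variance models, each array left out, a 1.5-fold threshold and the mean of a gene's probes. Sequences and figures were handled in Python 3.11.15 (pandas 2.3.3, matplotlib 3.10.9, numpy 2.4.6).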

Additional observations from a re-analysis of the deposited data

How the results depend on the processing

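Over the alternatives other than leaving out an array, the serpin probes called lower by the 2-fold rule, 4 as reported, were 2 with a slide row block, 3 with normexp, 3 with the methods' t-test and 5 with a 1.5-fold threshold. A probe never above background, of *Serpini1*, was called higher without the filter on dim probes (1 against 0). Serpin probes past the adjusted p, 0 as reported, were 1 with normexp, 1 with an intensity trend and 5 with array weights, where 38, 50 and 2086 of all tested probes passed it against 34 as reported. For the other serpins, without the filter 2 probes were called lower and 5 higher, and with array weights 1 was lower, 1 higher and 3 passed the adjusted p, each against 0. Of partner genes, 6 were called lower and 2 higher as reported, against 3 and 0 with normexp and 4 and 1 with the filter on all 6 arrays. Partner genes past the adjusted p, 2 as reported, were 1 with quantile normalization, with the study's values and with the replicate block, 0 with normexp, no filter, the filter on all 6 arrays, the t-test and the slide row block, and 14 with array weights. The causes were not tested.

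With each array left out in turn, the number of serpin probes called was 4 lower and 0 higher each time, and 0 to 3 passed the adjusted p. Over all tested probes 385 to 1054 were called by the 2-fold rule and 7 to 128 passed the adjusted p. The 3 serpin probes passed it without NEXN-WT replicate 1, where 128 of all tested probes did, against 34 as reported. Other serpin probes called were 0 to 2 lower and 0 to 3 higher, and partner genes 5 to 9 lower, 1 to 3 higher and 0 to 5 past the adjusted p. Of the partner and marker genes named, *Gzmm* lost its call without NEXN-WT replicate 1 (0.77), an alternative chosen after seeing the data. The sign turned for *Serpini1* A_52_P220573 with the percentile over all probes (0.05), quantile normalization (0.03), the study's values (0.03) and the slide row block (0.14), and its leave-one-out range was −0.13 to 0.14. It turned for *Serpini1* A_66_P100165 with normexp (0.23), for *Serpinb1a* with array weights (0.17; leave-one-out −0.29 to 0.15) and for *Serpinb6a* A_55_P2066727 with array weights (0.06; leave-one-out −0.30 to 0.01).

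Same-numbered arrays had correlations of deviations of −0.15, −0.03 and −0.18, and differently numbered arrays had −0.07 to 0.18. The deviations were centred within groups of 3, which ties these values together, so they cannot settle whether replicate numbers paired the samples. With the replicate block 4 serpin probes were called lower and 0 higher, 0 passed the adjusted p, and 12 of all tested probes passed it against 34.

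Over all tested probes, the median difference was 0.12 with normexp and 0.2 without the filter, against 0.01 as reported. Higher calls were 20.7% of all calls as reported, and 62% with no filter. With 3 arrays a group and 1 of them apart, the differences of *Serpinf1* and *Serpina3n* are known only within wide intervals, and the slide row holds 1 NEXN-S437E array beside the NEXN-WT group.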
